A study of Mus musculus with 6 samples.

Results

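The neuromuscular junction genes examined in injured quadriceps were the 5 subunits of the muscle acetylcholine receptor (Chrna1, Chrnb1, Chrnd, Chrng and Chrne), 4 genes of the pathway that gathers the receptor under the nerve terminal (Lrp4, Musk, Dok7 and Rapsn), and Ache, the enzyme that breaks down acetylcholine. These 10 members were looked up by gene symbol, and all 10 of them were among the 14016 genes that the deposited table lists. The libraries were made from polyadenylated RNA of quadriceps muscle taken 7 days after volumetric muscle loss, a surgical injury that removes part of the muscle. Neither group received an implant (per the methods, control wounds were filled with saline), and both carried the injury, so uninjured muscle was not part of the comparison. There were 3 libraries from WT mice and 3 from mice with the genotype GATA-1 mutant, ΔdblGATA in the study, a line that lacks eosinophils because of a deletion in a regulatory element of Gata1. The methods describe the WT animals as young adult female C57BL/6 mice, and the age of the mutants was not given in the sources used here.

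The table gives each gene a single level, the mean log2 CPM (read counts scaled to library size) over the libraries of the comparison, in which the genotypes are combined. Its other numeric columns are the authors' own comparison of the genotypes and were not used. No level is therefore split by mouse or genotype here, no error could be attached to a level, the depth of each library is unknown, and no genotype difference was tested. Among all listed genes, 1198 (8.55%) had a mean below 0 and the lowest was -4.08, although the methods state that genes had to exceed 1 CPM in at least 3 samples. Which libraries entered the filter and the mean is not given in the sources used here. Whether they were only the libraries described above was not tested, nor was the reason why a gene is not listed. A mean taken over both genotypes would hide any difference between them. In whole muscle, fewer cells of a type and less RNA per cell cannot be told apart. Gata1, the mutated gene, was not listed, and a mean over both genotypes could not have checked them in any case.

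The neuromuscular junction is the synapse at which a motor neuron drives a muscle fibre. The nerve releases acetylcholine, which opens a pentameric receptor made of a pair of α subunits with the β and δ subunits and either γ, in fetal and denervated muscle, or ε, in innervated adult muscle. Agrin from the nerve binds LRP4, which activates the kinase MuSK, and through the adaptor Dok-7 and the scaffold rapsyn the receptor is concentrated at the synapse. After denervation receptor genes such as those of the α and γ subunits are known to be transcribed along the whole fibre under myogenin, which binds E-boxes. At the synapse Ets-family factors act through N-boxes.

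Promoters of 3 receptor subunit genes are shown because γ and ε are the subunits that exchange between fetal or denervated and adult muscle, and because the α subunit gene is the classical target of denervation. Each runs from 250 bases before to 50 bases after the annotated start, is taken from RefSeq (GRCm38.p6) and is written 5′ to 3′ on the strand of the gene, with E-boxes (CANNTG) and N-boxes (CCGGAA) in capitals. The promoter of Chrna1 lies at chr2:73580289-73580588 on the minus strand, that of Chrng at chr1:87205561-87205860 on the plus strand and that of Chrne at chr11:70619145-70619444 on the minus strand.
Chrna1: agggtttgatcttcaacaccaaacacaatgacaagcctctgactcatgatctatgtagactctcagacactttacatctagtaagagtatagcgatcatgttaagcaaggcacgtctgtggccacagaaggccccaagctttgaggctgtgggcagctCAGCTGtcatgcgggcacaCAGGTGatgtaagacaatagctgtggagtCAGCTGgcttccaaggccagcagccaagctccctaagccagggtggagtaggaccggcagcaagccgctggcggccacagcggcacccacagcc
Chrng: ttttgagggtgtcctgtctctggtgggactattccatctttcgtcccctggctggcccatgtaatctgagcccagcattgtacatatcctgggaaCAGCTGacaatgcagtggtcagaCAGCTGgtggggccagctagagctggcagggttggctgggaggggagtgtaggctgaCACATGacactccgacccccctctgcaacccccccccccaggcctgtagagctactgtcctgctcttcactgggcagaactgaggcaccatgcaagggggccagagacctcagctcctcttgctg
Chrne: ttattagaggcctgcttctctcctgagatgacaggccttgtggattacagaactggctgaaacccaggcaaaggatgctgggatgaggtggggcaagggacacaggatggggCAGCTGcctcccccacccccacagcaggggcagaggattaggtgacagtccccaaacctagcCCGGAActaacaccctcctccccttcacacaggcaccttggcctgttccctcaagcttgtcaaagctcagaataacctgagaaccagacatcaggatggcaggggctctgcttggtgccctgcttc

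Chrna1 and Chrng each held 3 E-boxes in this window and no N-box, whereas Chrne held 1 E-box and 1 N-box. The N-box of Chrne began 76 bases before the annotated start. Promoters were matched for 7 of the 10 members, Dok7 with 2 annotated starts. Chrnb1 and Musk also held 3 E-boxes, and Ache and the first start of Dok7 held 1 each. Among all 32851 promoters of the same length, 72.3% held at least 1 E-box, 17.6% at least 3, and 14.9% at least 1 N-box on either strand. An E-box reads the same pattern on both strands and was counted once. These matches are of letters, not of bound sites, and the deposited table holds no measurement of binding.

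**Figure D1:**
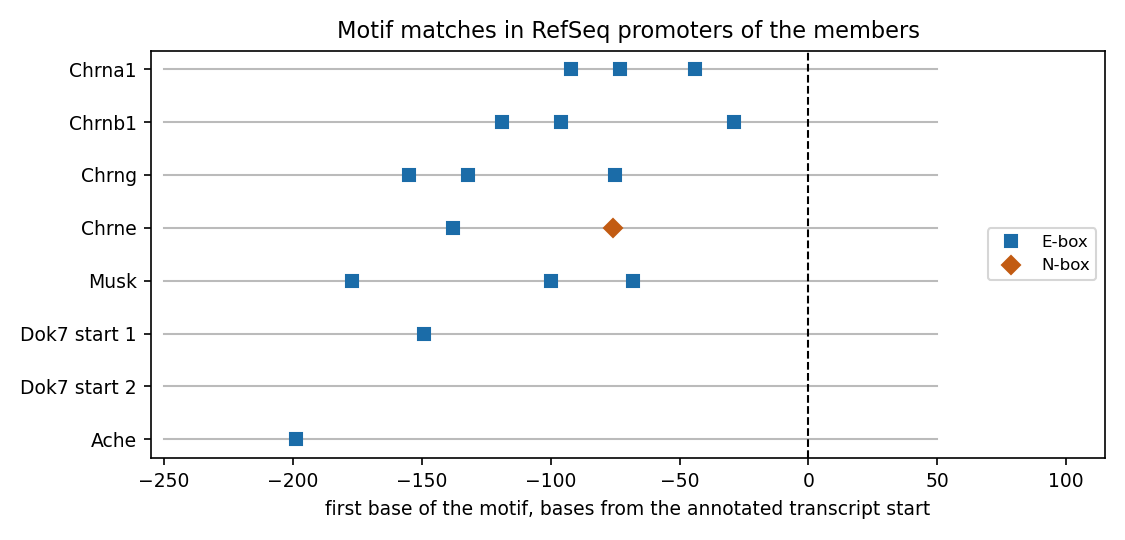
Positions of E-box (blue squares) and N-box (orange diamonds) matches in the RefSeq promoters of 7 members, in bases from the annotated start of transcription, marked by the dashed line. Chrna1, Chrnb1, Chrng and Musk each hold 3 E-boxes, and the only N-box match is in Chrne.

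The receptor subunits were unequally represented. Chrna1, which encodes the α subunit that carries most of the acetylcholine binding site, had the highest level of the members at 6.30 mean log2 CPM, higher than that of 87.7% of all listed genes. Chrnb1, the β subunit gene, followed at 6.22. Chrnd, which encodes δ, stood at 4.51, Chrng at 4.36 and Chrne at 3.19, against a median of 4.03 over all listed genes. Chrna1 and Chrnb1 thus lay above the upper quartile of the table, at 5.36, and Chrne was the only subunit gene below its median.

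As longer transcripts yield more fragments, levels of different genes were compared after subtracting log2 of the transcript length in kb, taken from the longest coding transcript unless another is named. On this scale, mean log2 CPM per kb, Chrnb1 was highest at 5.12 and Chrna1 was second at 4.16, since the Chrna1 transcript is 4386 nt long and that of Chrnb1 2155 nt. The level of Chrna1 per kb was thus 0.95 lower than that of Chrnb1 on the log2 scale. Chrnd had 2.95 and Chrng 2.88, which are 1.21 and 1.28 below Chrna1. Chrne had 2.50, with a transcript of 1616 nt, and 53.9% of listed genes were lower. Expressed as shares of the summed subunit level per kb, Chrnb1 made up 47.3%, Chrna1 24.4%, Chrnd 10.6%, Chrng 10.04% and Chrne 7.71%. With the shortest coding transcripts Chrng instead had the largest share, 40.6%, against 31.1% for Chrnb1 and 16.1% for Chrna1. That share rests on a Chrng transcript of 453 nt, too short to encode the 519 residues of its longest protein. These shares are of transcript in the tissue and do not give the composition of assembled receptors.

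Both the fetal and the adult form of the exchanged subunit were present. The mean level of Chrng was 1.16 above that of Chrne on the log2 CPM scale, a ratio of 2.24. Per kb of transcript the difference was 0.38, a ratio of 1.30, so that Chrng made up 56.5% of the summed level of the γ and ε genes. With the shortest coding transcripts in the annotation, the difference was 2.98, a ratio of 7.86. That of Chrng, 453 nt, is too short to encode the 519 residues of its longest protein. The size of the ratio thus depends on the transcript assumed. With no value per mouse, it could not be tested whether this difference exceeds the spread between animals. The ratio is taken over libraries of both genotypes and has no uninjured sample beside it. Which fibres gave the Chrng transcript, and whether they were denervated, was not tested.

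**Figure D2:**
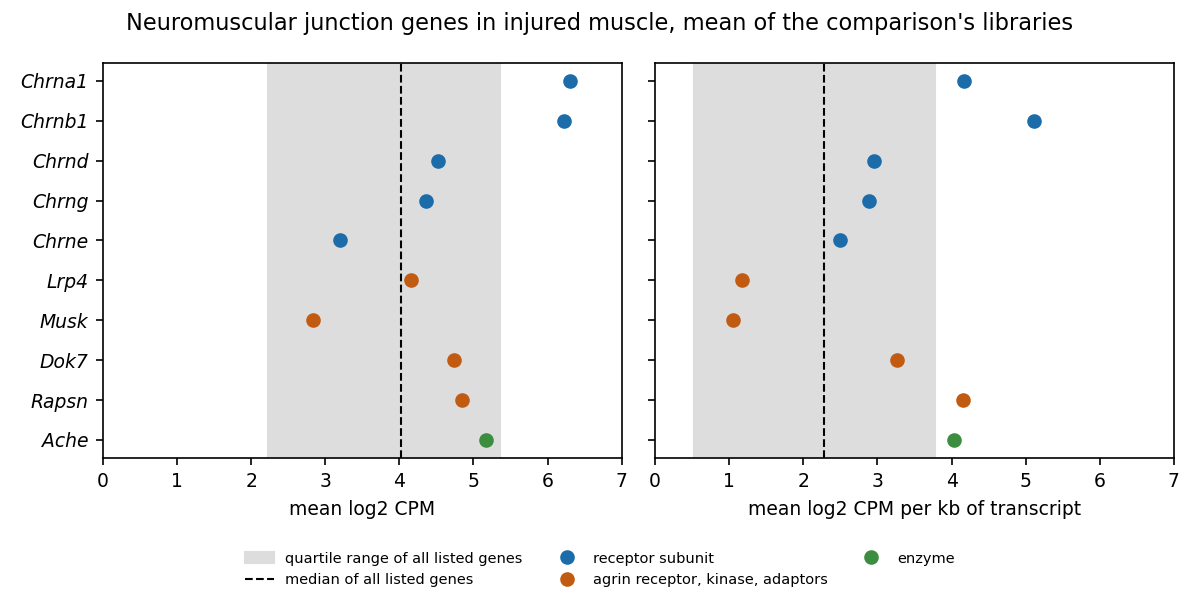
Mean log2 CPM (left) and mean log2 CPM per kb of transcript (right) of the 10 members, 1 point each, coloured by role. The dashed line is the median of all listed genes (4.03 and 2.28) and the grey band their quartile range (2.23 to 5.36 and 0.53 to 3.78). Chrna1 and Chrnb1 lie to the right of the band in both panels, and Rapsn and Ache only per kb. Musk lies left of the median in both panels, Lrp4 only per kb and Chrne only in the left panel.

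The organizers of the synapse ran from among the highest to the lowest of the members. Rapsn, whose product rapsyn anchors the receptor to the cytoskeleton, had a mean log2 CPM of 4.84 and, with a transcript of 1606 nt, 4.16 per kb, higher than 80.2% of listed genes. The levels of Rapsn and Chrna1 per kb differed by 0.01 on the log2 scale. Dok7, which encodes the adaptor that activates MuSK from inside the fibre, had 4.74, or 3.26 per kb. Lrp4, the gene of the agrin receptor, had 4.15, but its transcript of 7926 nt brought it to 1.17 per kb. Musk, the gene of the receptor tyrosine kinase on which the assembly of the synapse depends, had the lowest level of the members on both scales, 2.83 and 1.05 per kb, and 30.7% of listed genes were lower per kb. Rapsn was thus 8.59 times as abundant per kb as Musk, or 9.24 times with the shortest coding transcripts. Dok7 was 4.62 times as abundant as Musk, but 32.0 times with the shortest coding transcripts, which is 390 nt for Dok7. A transcript of 390 nt is too short to encode the 570 residues of the longest Dok7 protein.

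Ache had a mean log2 CPM of 5.16, the third of the members, and 4.04 per kb. Its place relative to Chrna1 turned with the transcript used. Per kb it was 0.13 lower on the log2 scale with the longest coding transcripts and 0.88 lower with the longest of any kind. With the shortest coding ones it was 2.98 higher. The shortest of Ache, 254 nt, is too short to encode the 614 residues of its longest protein. Colq, which encodes the collagen tail that fixes acetylcholinesterase in the synaptic basal lamina, was at 3.01 and 1.49 per kb.

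In order of level per kb the members ran Chrnb1, Chrna1, Rapsn, Ache, Dok7, Chrnd, Chrng, Chrne, Lrp4 and Musk. There were 8 of the 10 above the median of all listed genes, 2.28, and the median of the members was 3.11. Without error estimates no pair of neighbours in this order can be said to differ. The smallest gaps were between Chrna1 and Rapsn (0.01), between Chrnd and Chrng (0.07), and between Lrp4 and Musk (0.11). The widest gap, 1.33, separated Chrne from Lrp4. With the shortest coding transcripts, 3 of the 10 members kept their place in this order.

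**Figure D3:**
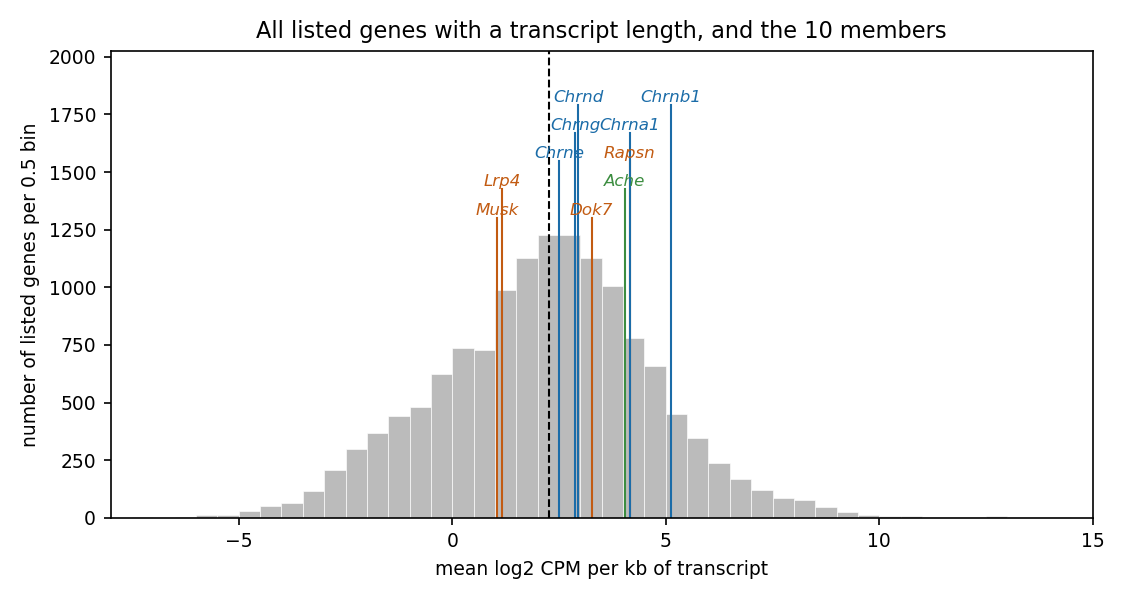
Histogram of mean log2 CPM per kb for the 13937 listed genes with a transcript length, in bins of 0.5, with the 10 members marked by coloured lines (blue, receptor subunits; orange, organizers; green, Ache). The dashed line is the median, 2.28. The members span 1.05 (Musk) to 5.12 (Chrnb1). The line of Rapsn is hidden behind that of Chrna1, both at 4.16.

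The receptor subunit genes are paralogs, so sequence that they share could have moved reads between them. No 31-base word of the longest coding transcript was shared between any of the 10 pairs of subunit genes. The proteins were least alike for α and ε, with 31.8% of aligned residues identical, and most alike for γ and ε, with 53.2%, followed by δ and γ with 49.3%. Counting all other genes, 4.09% of the words of Chrna1 occurred elsewhere, most often in Gm48735, and under 1% of those of each other member. Chrnd and Chrng are next to each other on chromosome 1 and on the same strand, with no coding gene between them. Exons of Rapsn and Ache overlap those of Gm13778 and Gm42456 on the opposite strand. Neither of these overlapping genes was listed, and the strandedness of the libraries was not given in the sources used here.

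The wider postsynaptic apparatus was largely listed. Of 24 other genes of the postsynaptic membrane and synaptic matrix, 21 were listed, with a median of 2.18 per kb, and 9 of them were above the median of all genes. Syne1, the gene of the nuclear envelope protein nesprin-1, was lowest at -0.28 per kb. Agrn, the gene of agrin, was at 2.38 and Utrn, the gene of the synaptic dystrophin homologue utrophin, at 1.47. The 3 that were not listed were Sntb2, the neuregulin gene Nrg1 and the neuregulin receptor gene Erbb4. Gabpa, the Ets factor subunit that binds N-boxes, was at 3.00.

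All 8 genes listed under assembly and glycosylation of the receptor were present, with a median of 2.77 per kb. Canx, which encodes the chaperone calnexin, was highest at 5.26. Gfpt1 and Dpagt1, sugar-pathway enzymes whose loss in people causes congenital myasthenic syndromes, were at 3.26 and 3.00. Ric3, a chaperone of neuronal nicotinic receptors, was lowest at -1.62.

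All 13 genes of the denervation response were listed as well, 9 of them above the median of all genes per kb. Gadd45a, a growth-arrest gene induced by denervation, was highest at 6.70, and the ubiquitin ligase gene Trim63 had 6.56. Myog, the gene of myogenin, was at 5.79, above all 10 members. Runx1, which rises in denervated fibres, was at 2.78. Hdac4, a deacetylase that relays denervation to the receptor genes, was at 2.68, while Dach2, which encodes a co-repressor of Myog, was lowest at -2.32. Several of these genes are also used in regenerating muscle and by immune cells, so their levels are not specific to denervation.

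Transcripts of the nerve were nearly absent from the list, in contrast to those of the muscle side. Of 12 motor axon and presynaptic genes only 3 were listed: Syn1 at -0.22 mean log2 CPM, Syt2 at -0.32 and Prph at -0.83. Chat and Slc18a3, which define cholinergic neurons, were not listed, nor were the neurofilament genes Nefl, Nefm and Nefh. Of 16 genes of neuronal nicotinic and muscarinic acetylcholine receptors, 3 were listed, Chrna10 at 1.22, Chrna9 at 0.07 and Chrna2 at -0.15. The 5 muscle receptor subunits were thus each above every other acetylcholine receptor gene in the table, by at least 1.98 mean log2 CPM. Cell bodies of motor neurons lie in the spinal cord, outside the tissue sampled.

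The tissue label was checked against markers. All 11 skeletal muscle fibre markers were listed, with a median of 9.98 per kb, and they included the embryonic and neonatal myosin genes Myh3 (5.50) and Myh8 (6.26) of regenerating fibres. Acta1, the skeletal actin gene, was at 13.77 per kb. All 8 Schwann cell markers were listed, but 7 of them were below the median of all genes. Sox10 was lowest at -1.50, and Pmp22, which other cells also express, was the only one above at 4.85. The 6 macrophage and leukocyte markers ranged from 2.18 (Itgam) to 8.72 (Lyz2), and the 6 endothelial and mesenchymal markers from 2.95 (Pdgfra) to 9.10 (Col1a1). Of 7 eosinophil markers only Ear2 was listed, at 0.61. The part of each cell type in the level of a member was not tested.

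**Figure D4:**
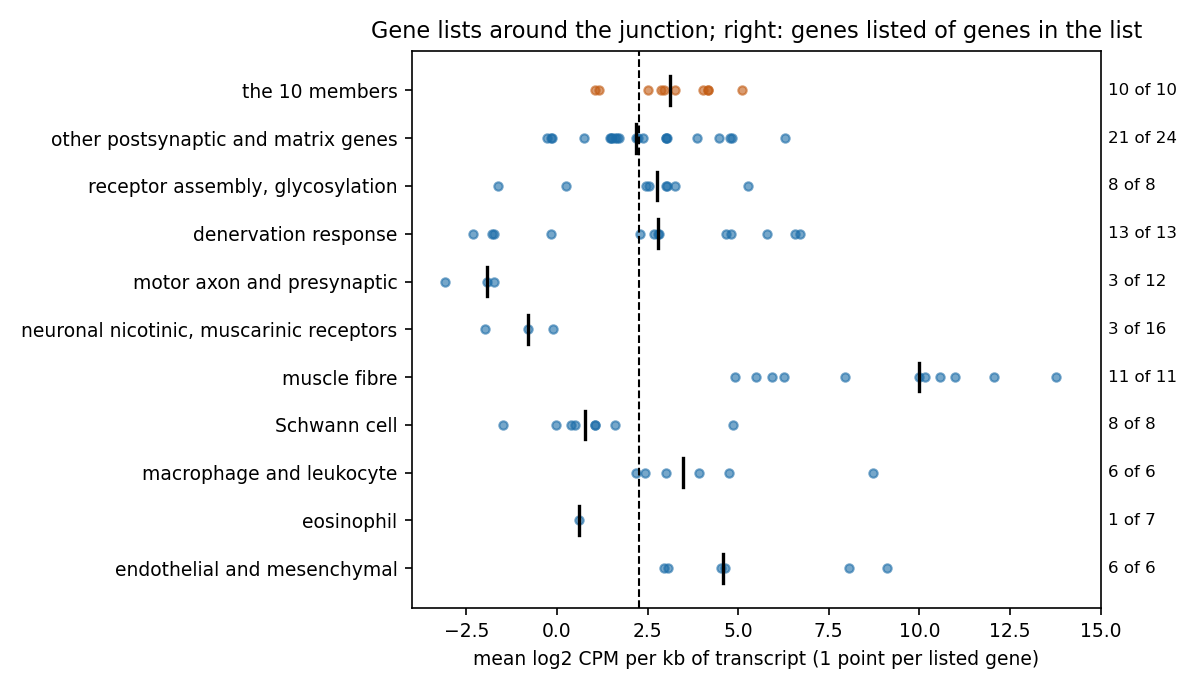
Mean log2 CPM per kb of each listed gene in the members (orange) and in 10 other gene lists (blue), with the median of each list as a black bar and the median of all listed genes, 2.28, as a dashed line. The numbers at the right give the genes listed out of those in each list, and motor axon genes (3 of 12) and neuronal receptors (3 of 16) are mostly missing while all 10 members are present.

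The place of a member among all genes depended on which transcript gave the length. With the longest transcript of any kind, Ache moved from higher than 78.5% of listed genes to 69.0%, as its longest transcript is 3687 nt against 2186 nt for the longest coding one. With the shortest annotated coding transcript, 6 of the 10 members were above the median, and Chrnd and Chrne were below it, at 41.3% and 35.8%. Their own levels per kb hardly changed, from 2.95 to 2.97 and from 2.50 to 2.52. It was the median of all genes that rose, from 2.28 to 3.64. The shortest coding transcripts of Chrng, Dok7 and Ache are only 453, 390 and 254 nt long. They are too short to encode the longest proteins of these genes, of 519, 570 and 614 residues. With these lengths the level per kb of Chrng was above that of Chrna1 by 1.34 on the log2 scale. Lrp4 and Musk were below the median under each of the 3 lengths, and Chrna1, Chrnb1, Chrng, Rapsn, Dok7 and Ache above it.

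**Figure D5:**
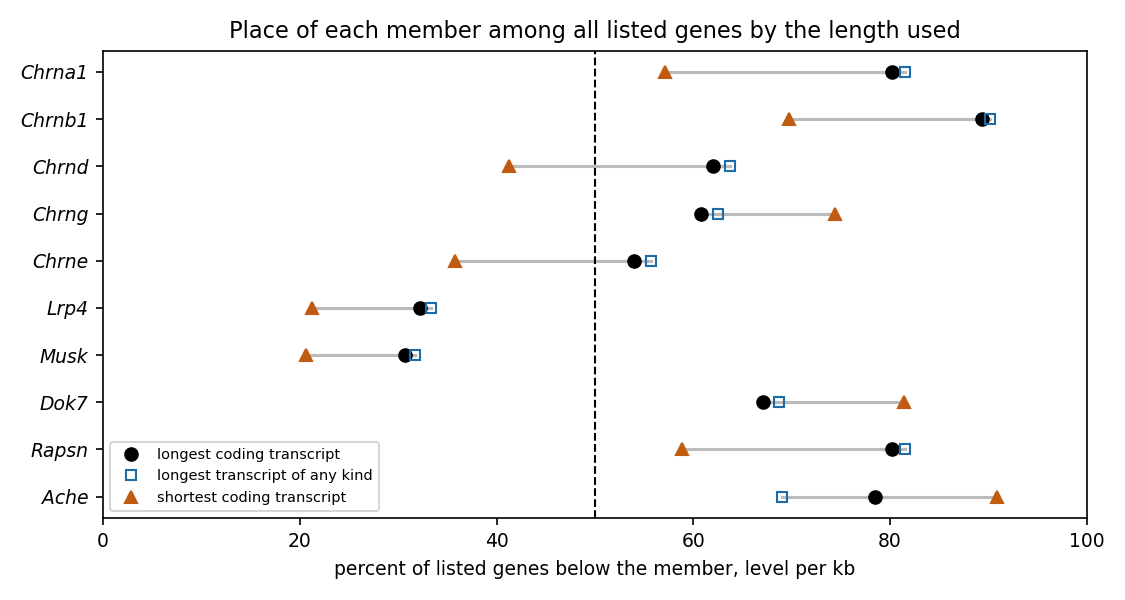
Percent of listed genes with a lower level per kb than each member, by the transcript length used (black circles, longest coding; blue squares, longest of any kind; orange triangles, shortest coding). The dashed line marks the median. Chrnd and Chrne lie left of it only with the shortest coding transcript, with which the median level of all genes is higher. Lrp4 and Musk stay left of it.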

How the data were processed

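Poly(A)-selected RNA of injured quadriceps was sequenced by the authors from 3 WT and 3 GATA-1 mutant mice. Per their methods, paired-end reads were pseudoaligned with kallisto and summed to genes, CPM values were computed, genes above 1 CPM in at least 3 samples were kept, and values were log transformed, TMM-normalized and compared with limma. The labels name GRCm39, and the transcript index was not given in the sources used here. The deposited log2 values used here are the mean log2 CPM of each gene over the libraries of that comparison. Those libraries were assumed to be these 6. Despite the stated filter, 1198 listed genes had a mean below 0, and whether other libraries entered the mean was not tested. The table holds 14016 genes, 1 of them without a symbol, and 5 further columns with the authors' own genotype comparison (fold change, moderated statistic, p-values and log-odds), which were not used. It has no values per mouse, so the planned test across genes was not fitted, and library depth and precision are unknown.

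GENCODE M21 (GRCm38) held 13458 of the symbols as written and 479 more by way of a RefSeq synonym, giving 99.4% of genes a transcript length (longest coding transcript, or longest where none is coding). Levels per kb are mean log2 CPM less log2 of length in kb. Percentiles are the share of listed genes with a lower value. Words of 31 bases were compared with all GENCODE transcripts on either strand. Proteins translated from the longest coding sequence were aligned globally with BLOSUM62 in Biopython 1.88. The percentile step was checked on shuffled levels, where its answer is fixed, and the motif step on N-boxes planted in random sequences. Adgre1 and Tmem35a were found under older symbols. The members and lists were chosen with earlier results of these data known. Named are all members and, from each list, the lowest and highest gene, up to 4 examples, and genes needed to state a count, except 1 gene that is not reported here. Why a gene is not listed is not known.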

Additional observations from a re-analysis of the deposited data

How the results depend on the processing

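No paired analysis was possible because levels of single mice were not given in the file, which pools them. The planned fits with another pseudocount or filter and those leaving out each mouse could therefore not be run. The number of members above the median level per kb was 8 with the longest coding transcript, with the longest transcript of any kind and among protein-coding genes only, 7 among genes whose mean log2 CPM reached 1, and 6 with the shortest coding transcript. Of 20 percentiles recomputed with another length, 19 moved by at least 1 point. In the order of the members, 4 of the 10 kept their place when levels were not divided by length, 10 with the longest transcript of any kind and 3 with the shortest coding transcript. Pair differences and subunit shares were recomputed by length after seeing the data. With the shortest coding transcripts, Ache turned from 0.13 below to 2.98 above Chrna1 per kb, and Chrng from 2.24 below to 0.38 above Chrnb1 (log2). Short coding transcripts in the annotation include fragments, which raise a level per kb by construction. The shortest ones of Chrng, Dok7 and Ache are too short to encode the longest proteins of these genes. Levels carry no error, so the spread between mice limits every comparison by an unknown amount.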
